A study of Homo sapiens with 8 samples.

Results

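A set of 10 genes of insulin and insulin-like growth factor (IGF) signaling was followed through a NAT10 knockdown in HepG2 cells: the IGF binding proteins IGFBP1, IGFBP2 and IGFBP4, the receptors INSR, IGF1R and IGF2R, the adaptors IRS1 and IRS2, and the transcription factors FOXO1 and FOXO3. They were chosen by name for their place in the pathway, with earlier results of these data known. Their 10 rows were taken from a count table of 86369 Ensembl gene identifiers. Of the 10 genes, 9 passed the filter on low counts, as did 13840 identifiers in all, and IRS2 did not. HepG2 is an established human hepatocellular carcinoma line. The cells received by lipofection either siNAT10, a short interfering RNA (siRNA) against the RNA cytidine acetyltransferase NAT10, or the negative control siCtrl, and RNA was taken 2 days later. Each group had 4 libraries of polyadenylated RNA read at its 3' end. Replicates 1 and 2 of both groups belonged to batch 1 and replicates 3 and 4 to batch 2, as labelled, and what set the batches apart was not stated. All cells were of this 1 line, so the libraries carry no spread between donors, and whether they came from separate cultures was not stated.

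Insulin and the IGFs act through the receptor tyrosine kinases INSR and IGF1R, which phosphorylate the adaptors IRS1 and IRS2 and so start signaling through phosphoinositide 3-kinase (PI3K) and AKT. AKT phosphorylates FOXO1 and FOXO3 and keeps them out of the nucleus, which lowers transcription of their target genes. The liver makes most circulating IGF binding proteins, which hold IGFs in solution and regulate their access to receptors. Transcription of IGFBP1 in liver is repressed by insulin and driven by FOXO1, and IRS2 and INSR are also known FOXO targets.

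Levels are given in CPM, counts per 1000000 of a library's scaled total over the genes that passed the filter. NAT10 stood at 44.7, 39.2, 77.8 and 48.9 CPM in siCtrl replicates 1 to 4 and at 13.1, 12.2, 20.1 and 22.3 CPM in siNAT10 replicates 1 to 4. The siRNA groups did not overlap (log2 fold change -1.66, edgeR adjusted p 2.02e-05). The difference was -1.73 in batch 1 alone (edgeR adjusted p 5.18e-07) and -1.58 in batch 2 alone (edgeR adjusted p 0.0861). NAT10 itself was also higher in batch 2 (log2 fold change 0.67, edgeR adjusted p 0.00207), and its part in the batch results below was not tested. Library totals ran from 9731718 to 27977110 counts, with the 2 shallowest libraries those of siNAT10 in batch 2. The hepatocyte origin of the line was visible: ALB, AFP, APOA1 and TF, which encode plasma proteins, were abundant, while PTPRC, CD3E, KDR, COL1A2, DCN and LUM, markers of blood, endothelial and stromal cells, had 0 counts in every library. LYZ made up nearly all of the lymphoid and myeloid sum, which ran from 416 to 567 CPM in siCtrl and from 339 to 397 CPM in siNAT10. The 10 hepatocyte markers, of which 9 were tested and 1 was called (lower), summed to between 9423 and 9899 CPM in siCtrl and to between 7605 and 8171 CPM in siNAT10. Both sums were lower in every siNAT10 library than in any siCtrl library, and their part in the results below was not tested. Endothelial markers summed to at most 0.796 CPM, and fibroblast and stellate markers to at most 1.38 CPM, in any library. The share of counts in mitochondrially encoded genes lay between 1.06% and 1.52% in batch 1 and between 1.64% and 1.91% in batch 2. In bulk RNA, fewer cells making a transcript and less transcript per cell cannot be told apart.

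Among the members, the knockdown was accompanied by a fall of IGFBP2 to 53.5% of its siCtrl level, and the other 8 tested members were not called. Calls were made with edgeR's quasi-likelihood test with batch as a term, at a Benjamini-Hochberg adjusted p under 0.05 over all 13840 genes. By that rule 2.28% of all tested genes were called (113 higher, 0.816%, and 202 lower, 1.46%, in siNAT10, or 138 and 149 when libraries were scaled by total count alone), against 1 of 9 members. The median log2 fold change of the 9 members was 0.013, and that of all tested genes was -0.0024. With 1 call among 9 genes the share says little about the members as a list, and the values of each gene follow in the order of their roles.

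**Figure D1:**
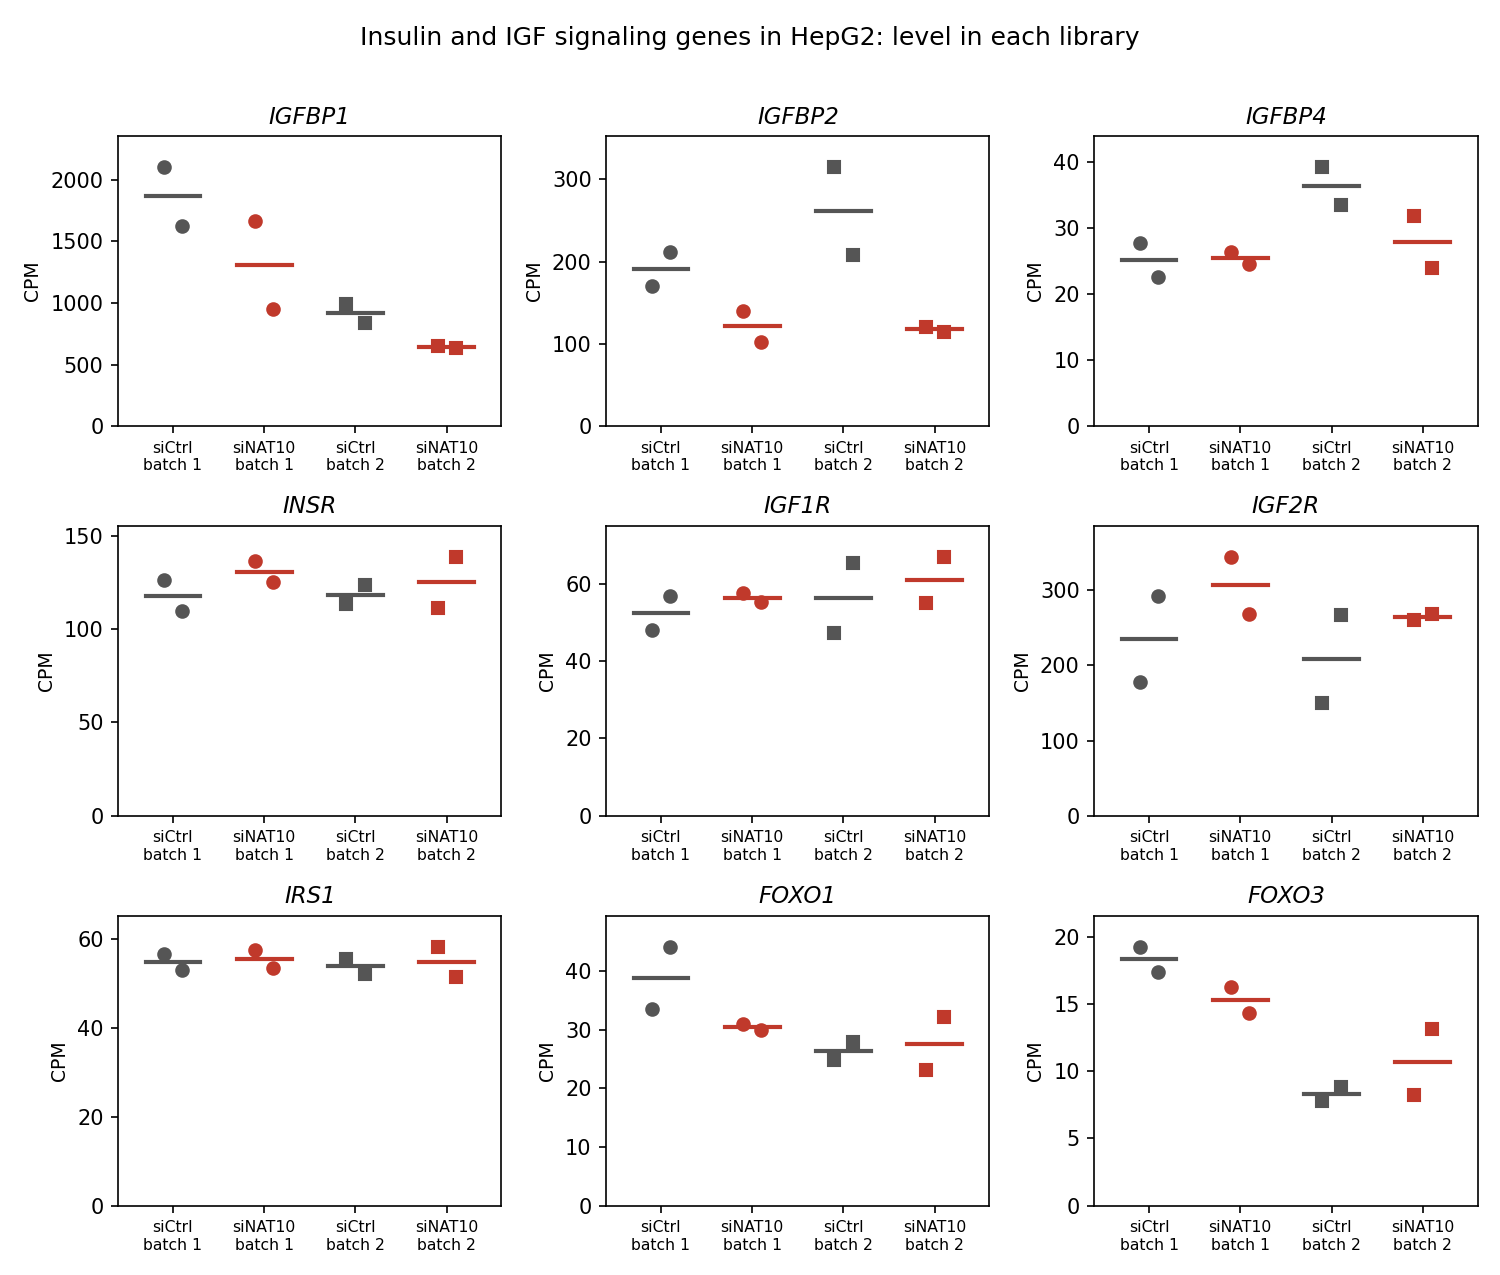
CPM (y axis, from 0) of the 9 tested genes in each library. Grey marks siCtrl and red siNAT10, circles are batch 1 and squares batch 2, and each bar is the mean of 2 libraries. The siNAT10 values of IGFBP2 all lie below its siCtrl values, IGFBP1 and FOXO3 step down from batch 1 to batch 2, and IRS1 stays between 51.5 and 58.3 CPM.

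IGFBP2 (ENSG00000115457; GRCh38 chromosome 2, 216632828 to 216664436, plus strand) encodes a secreted protein that binds IGF1 and IGF2. It stood at 170, 211, 315 and 208 CPM in siCtrl replicates 1 to 4 and at 140, 103, 121 and 114 CPM in siNAT10 replicates 1 to 4. Every siNAT10 library lay below every siCtrl library, a separation seen in 5.4% of all tested genes in either direction and in 1 of the 9 members. The mean was 226 ± 62.0 CPM with siCtrl and 119 ± 15.8 CPM with siNAT10 (SD, n = 4 each). On the log2 scale the fitted difference was -0.90 (standard error 0.15), a fold of 0.535 with a 95% interval from 0.429 to 0.668 (edgeR adjusted p 0.00557). The hepatocyte marker sum was lower in the same 4 libraries. Leaving out any single library kept the call, with log2 fold changes from -1.05 to -0.71 and edgeR adjusted p up to 0.0424. The fold was -0.65 on the log2 scale in batch 1 alone (edgeR adjusted p 0.0428) and -1.15 in batch 2 alone, where 2 libraries against 2 gave an edgeR adjusted p of 0.129. Without the batch term the change was -0.92 and the call was lost (edgeR adjusted p 0.113).

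The 250 bases upstream of the annotated start of IGFBP2 are shown because it is the member that fell, and a FOXO or insulin response motif would be sought there. The sequence is from RefSeq, GRCh38.p14, chr2:216633170-216633419, plus strand, 5′ to 3′, and holds no exon in GENCODE 44, whose IGFBP2 gene begins further upstream.
IGFBP2 upstream: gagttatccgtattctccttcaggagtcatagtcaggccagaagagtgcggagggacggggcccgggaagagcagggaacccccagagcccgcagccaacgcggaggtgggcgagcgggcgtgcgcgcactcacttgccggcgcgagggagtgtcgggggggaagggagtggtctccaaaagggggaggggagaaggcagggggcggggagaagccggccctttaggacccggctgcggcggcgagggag
It is 69.2% G or C and is in lower case throughout, since neither the FOXO core TGTTTAC nor the insulin response core CAAAACA occurs in it on either strand. Windows of 300 bases (250 before and 50 after a start) were available for 9 of the 10 members, 14 windows in all. The FOXO core was in none of these 14, against 3.42% of 35116 windows of all genes. No window was found for IGFBP1.

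IGFBP1 (ENSG00000146678; chromosome 7, 45888360 to 45893660, plus strand), the insulin-repressed binding protein, had the most counts of the members. It stood at 2103, 1629, 994 and 837 CPM in siCtrl replicates 1 to 4 and at 1663, 955, 652 and 635 CPM in siNAT10 replicates 1 to 4. In batch 2 both siNAT10 libraries lay below both siCtrl libraries, while in batch 1 siNAT10 replicate 1 lay above siCtrl replicate 2. Between siNAT10 and siCtrl it differed by -0.51 on the log2 scale (standard error 0.15), a fold of 0.702 with a 95% interval from 0.565 to 0.872. It did not pass (edgeR adjusted p 0.0842). The call turned on the fit: IGFBP1 passed with the replicate number as a block (log2 fold change -0.53, edgeR adjusted p 0.0138), in DESeq2's Wald test (-0.50, adjusted p 0.0277), with no filter on low counts (-0.52, edgeR adjusted p 0.000275) and without siNAT10 replicate 1 (-0.69, edgeR adjusted p 0.0371). It had an edgeR adjusted p of 0.782 without the batch term. The change was the same size in each batch alone, -0.51 in both.

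Between batches IGFBP1 was called, lower in batch 2. Its mean was 1587 ± 474 CPM in batch 1 and 779 ± 170 CPM in batch 2 (SD, n = 4 each), a log2 fold change of -1.03 (standard error 0.15, edgeR adjusted p 0.000144). The mitochondrial share was higher in every batch 2 library, and its part in this was not tested. The order of the 4 combinations was batch 1 siCtrl (mean 1866 CPM), batch 1 siNAT10 (1309 CPM), batch 2 siCtrl (915 CPM) and batch 2 siNAT10 (644 CPM). The first pair overlapped, as did the middle pair, where siNAT10 replicate 2 at 955 CPM lay below siCtrl replicate 3 at 994 CPM. The batch difference was present in siCtrl alone (-1.02, edgeR adjusted p 0.00472) and in siNAT10 alone (-1.03, edgeR adjusted p 0.0053). Of all tested genes 25.3% were called between batches, and of the members 2 of 9 were, IGFBP1 and FOXO3. At an unadjusted p under 0.05 there were 4 of 9 members, with IGFBP4 and FOXO1, against 37.3% of all tested genes. Either share is near the background and is not a result about the list.

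IGFBP4 (ENSG00000141753; chromosome 17, 40443450 to 40457725, plus strand), a binding protein that restrains IGF action and is cut by the protease PAPPA, was not called in either comparison. It stood at 27.8, 22.6, 39.2 and 33.5 CPM in siCtrl replicates 1 to 4 and at 26.3, 24.6, 31.8 and 24.0 CPM in siNAT10 replicates 1 to 4. The siRNA groups overlapped in batch 1 and not in batch 2. The log2 fold change between siNAT10 and siCtrl was -0.18 with a 95% interval from -0.46 to 0.09 (edgeR adjusted p 0.543). Between batches it was 0.34, with an interval from 0.06 to 0.61 (edgeR adjusted p 0.0675), and without siNAT10 replicate 4 it passed (0.45, edgeR adjusted p 0.0117). IGFBP2 did not pass between batches (0.21, edgeR adjusted p 0.337).

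**Figure D2:**
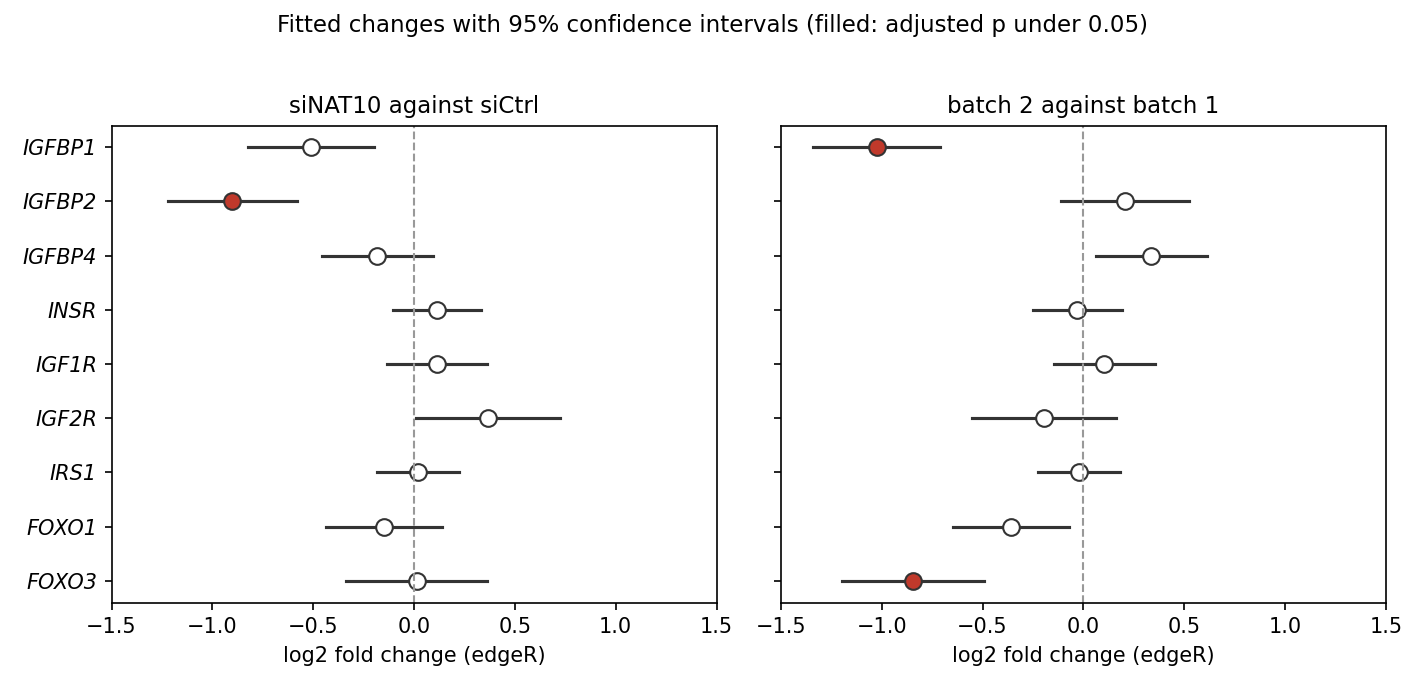
Fitted log2 fold changes (x axis) of the 9 tested genes with 95% intervals as lines, for siNAT10 against siCtrl on the left and batch 2 against batch 1 on the right. Filled points passed at an edgeR adjusted p under 0.05: IGFBP2 on the left (-0.90), IGFBP1 (-1.03) and FOXO3 (-0.84) on the right.

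The receptors were not called in either comparison. INSR (ENSG00000171105; chromosome 19, 7112255 to 7294414, minus strand), the insulin receptor, stood at 126, 109, 113 and 124 CPM in siCtrl replicates 1 to 4 and at 136, 125, 111 and 139 CPM in siNAT10 replicates 1 to 4. IGF1R (ENSG00000140443; chromosome 15, 98648539 to 98964530, plus strand), which binds both IGFs and transmits their growth signal, stood at 48.0, 56.9, 47.1 and 65.2 CPM in siCtrl and at 57.6, 55.2, 55.1 and 66.9 CPM in siNAT10. For both genes the siRNA groups overlapped. INSR differed by 0.11 on the log2 scale (95% interval -0.11 to 0.33, edgeR adjusted p 0.653) and IGF1R by 0.11 (-0.14 to 0.36, edgeR adjusted p 0.709). The upper bounds correspond to folds of 1.26 and 1.29, so larger rises lay outside the intervals. Between batches the log2 fold changes were -0.030 for INSR (edgeR adjusted p 0.866) and 0.10 for IGF1R (edgeR adjusted p 0.556).

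IGF2R (ENSG00000197081; chromosome 6, 159969082 to 160113507, plus strand), the mannose 6-phosphate receptor that takes up IGF2 for degradation, was the most variable receptor. Its siCtrl values were 178, 292, 150 and 267 CPM in replicates 1 to 4 and its siNAT10 values 344, 269, 260 and 269 CPM. The low values were siCtrl replicates 1 and 3, 1 in each batch, and the other siCtrl libraries lay among the siNAT10 libraries. The log2 fold change of 0.36 (standard error 0.17) had an unadjusted p of 0.0459 and did not pass (edgeR adjusted p 0.308), where 15.7% of all tested genes had an unadjusted p under 0.05. Without 1 library it ranged from 0.23 (without siCtrl replicate 1 or 3) to 0.55 (without siCtrl replicate 4), and it passed in none of these fits. Between batches IGF2R differed by -0.19 (edgeR adjusted p 0.432).

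IRS1 (ENSG00000169047; chromosome 2, 226731312 to 226799820, minus strand), an adaptor that links both receptor kinases to PI3K, was the most even member. It stood at 56.7, 53.2, 55.6 and 52.3 CPM in siCtrl replicates 1 to 4 and at 57.5, 53.6, 58.3 and 51.5 CPM in siNAT10 replicates 1 to 4. The SD over 4 libraries was 2.05 CPM in siCtrl and 3.24 CPM in siNAT10. The log2 fold change was 0.020 between siNAT10 and siCtrl (95% interval -0.18 to 0.22, edgeR adjusted p 0.951) and -0.021 between batches (-0.22 to 0.18, edgeR adjusted p 0.9). The interval for the knockdown spans folds from 0.881 to 1.17.

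IRS2 (ENSG00000185950; chromosome 13, 109752695 to 109786583, minus strand), the other main adaptor in liver and a FOXO target, was listed with 1 count in each batch 1 library and 0 counts in each batch 2 library, 4 counts in all. IRS2 did not pass the filter on low counts, so it was not tested and no fold is given. Its counts also lie under a floor of 3 counts per library, which equals 0.104 to 0.293 CPM over the 8 libraries. APOB, the main structural protein of the lipoproteins that hepatocytes secrete, had 7 counts in 1 library and 0 in the other 7. As a gene that liver-derived cells commonly use stands near the floor in this table, the IRS2 row is not read as its expression. No other gene of GENCODE 44 has an exon in the last 1000 bases of IRS2 or of any other member. The window upstream of IRS2 is shown because it alone among the members' windows held either motif. It is from RefSeq, GRCh38.p14, chr13:109786584-109786833, minus strand, 5′ to 3′, with the match in capitals.
IRS2 upstream: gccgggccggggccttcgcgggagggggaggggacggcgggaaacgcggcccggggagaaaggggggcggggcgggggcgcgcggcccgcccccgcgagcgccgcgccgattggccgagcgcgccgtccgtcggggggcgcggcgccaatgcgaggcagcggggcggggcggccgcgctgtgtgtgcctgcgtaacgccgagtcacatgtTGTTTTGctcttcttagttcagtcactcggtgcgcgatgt
The capitals are TGTTTTG, the insulin response core CAAAACA on the other strand, whose first base lies 40 bases before the start. The core was in 1 of the 14 windows of the members and in 4.92% of all 35116 windows. These are matches of letters, and binding was not measured.

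Of the FOXO factors among the members, FOXO3 was called between batches, lower in batch 2, and FOXO1 was called in neither comparison. FOXO3 (ENSG00000118689; chromosome 6, 108559835 to 108684774, plus strand) stood in batch 1 at 19.3 and 17.4 CPM with siCtrl and at 16.3 and 14.4 CPM with siNAT10. In batch 2 it stood at 7.82 and 8.82 CPM with siCtrl and at 8.23 and 13.2 CPM with siNAT10. All batch 2 libraries lay below all batch 1 libraries, as they did in 11.2% of all tested genes (22.7% were clear in either direction). The log2 fold change between batches was -0.84 (standard error 0.17, edgeR adjusted p 0.0017). It was -1.14 in siCtrl alone (edgeR adjusted p 0.00253) and -0.53 in siNAT10 alone, where it did not pass (edgeR adjusted p 0.172). Between siNAT10 and siCtrl the change was 0.013 with a 95% interval from -0.34 to 0.36 (edgeR adjusted p 0.985). FOXO3 has a near-identical copy, FOXO3B, and the authors' treatment of reads that map to both was not given in the sources used here, so its level is uncertain to that extent.

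FOXO1 (ENSG00000150907; chromosome 13, 40555667 to 40666641, minus strand), the FOXO factor best known for gluconeogenic and IGFBP1 transcription in liver, was not called. It stood at 33.6, 44.1, 24.7 and 27.8 CPM in siCtrl replicates 1 to 4 and at 31.0, 29.9, 23.1 and 32.2 CPM in siNAT10 replicates 1 to 4. The siRNA groups were separate in batch 1, with siNAT10 lower, and overlapped in batch 2. The log2 fold change was -0.15 between siNAT10 and siCtrl (95% interval -0.44 to 0.14, edgeR adjusted p 0.655). Between batches it was -0.36 (-0.65 to -0.07, edgeR adjusted p 0.0645), and it passed with no filter on low counts (-0.39, edgeR adjusted p 0.0264) and without siNAT10 replicate 4 (-0.50, edgeR adjusted p 0.00716).

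The interaction of batch and siRNA was tested for each member, since several seemed to respond differently in the batches. FOXO3 was lower in siNAT10 by 0.26 on the log2 scale in batch 1 and higher by 0.37 in batch 2, an interaction of 0.62 with an unadjusted p of 0.0594 and an edgeR adjusted p of 1. IGFBP2 had an interaction of -0.51 (unadjusted p 0.0939, edgeR adjusted p 1). No member passed, and of all tested genes edgeR called 0% for the interaction, with 3.04% at an unadjusted p under 0.05 and 1 gene called by DESeq2's Wald test. A difference in the siRNA effect between batches was therefore not shown for any member.

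Other genes of the pathway were read from 5 lists by role, 87 genes of which 72 were tested. In siNAT10 against siCtrl 3 of the 72 were called, 1 higher and 2 lower, beside the 2.28% of all tested genes. Of 6 tested ligands and carriers 0 were called, and IGF2, the fetal growth factor, averaged 26.0 ± 3.14 CPM with siCtrl and 28.1 ± 5.69 CPM with siNAT10 (SD, n = 4 each). Of 17 tested PI3K and AKT genes and 16 TSC and mTOR genes 0 were called. AKT1, the kinase, differed by -0.063 on the log2 scale and MTOR by -0.12. The median log2 fold changes were 0.048 for ligands and carriers, 0.062 for receptor adaptors and brakes, 0.060 for PI3K and AKT, -0.052 for TSC and mTOR, and -0.043 for FOXO factors and FOXO-regulated genes.

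The higher gene was SOS1, an exchange factor that couples receptor adaptors to RAS. It stood at 59.4, 61.3, 120 and 121 CPM in siCtrl replicates 1 to 4 and at 81.7, 68.2, 172 and 169 CPM in siNAT10 replicates 1 to 4. Both siNAT10 libraries lay above both siCtrl libraries in each batch, as did the libraries of 14.7% of all tested genes in 1 direction or the other. It differed by 0.41 on the log2 scale (standard error 0.10, edgeR adjusted p 0.0393), and each of the 8 fits without 1 library lost the call (edgeR adjusted p from 0.0567 to 0.138) with differences from 0.38 to 0.48. The call was also lost after thinning to the smallest total (0.40, edgeR adjusted p 0.0524). SOS1 was also higher in batch 2 (1.09, edgeR adjusted p 2.68e-06).

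Both lower genes belong to the list of FOXO factors and FOXO-regulated genes, where 2 of 19 tested genes were called. That list is not one of FOXO targets alone, as it also holds FOXO4. CITED2, a transcriptional coregulator, stood at 57.7, 61.7, 56.6 and 62.9 CPM in siCtrl replicates 1 to 4 and at 33.1, 35.1, 32.3 and 39.8 CPM in siNAT10. The groups were clear of each other in both batches, the log2 fold change was -0.77 (standard error 0.10, edgeR adjusted p 0.000887), and the call held in all 8 fits without 1 library. TXNIP, a thioredoxin inhibitor that limits glucose uptake, stood at 147, 158, 113 and 138 CPM with siCtrl and at 109, 68.9, 90.3 and 91.1 CPM with siNAT10. It differed by -0.63 on the log2 scale (standard error 0.13, edgeR adjusted p 0.022), and the call was lost in 5 of the 8 fits without 1 library: without siCtrl replicate 1 (0.0798), 2 (0.087) or 4 (0.0582) and without siNAT10 replicate 2 (0.0798) or 3 (0.0524). PCK1, the gluconeogenic enzyme that FOXO1 drives, was low and not called (4.71 ± 1.04 CPM with siCtrl and 4.05 ± 1.99 CPM with siNAT10, SD, n = 4 each). Without regard to a test, 9 of the 19 were higher in siNAT10 and 10 lower.

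**Figure D3:**
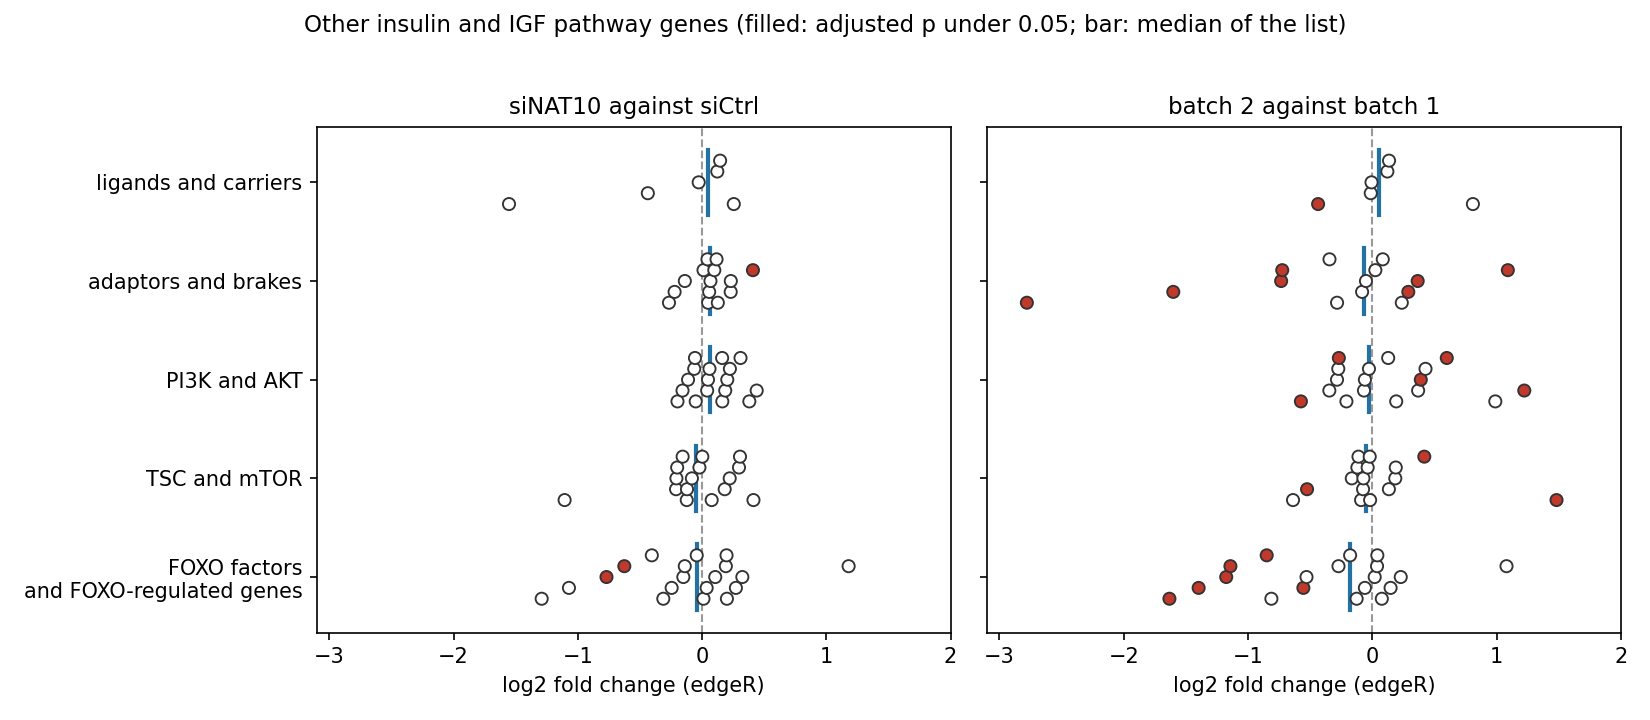
Log2 fold change (x axis) of each tested pathway gene by list, for siNAT10 against siCtrl on the left and batch 2 against batch 1 on the right, with the list's median as a blue bar. Filled points passed at an edgeR adjusted p under 0.05: 3 of 72 on the left and 22 of 72 on the right.

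Between batches 22 of the 72 genes were called, 8 higher and 14 lower in batch 2, beside 25.3% of all tested genes (1806 higher and 1694 lower). Adaptors and brakes had the largest share, with 7 of 14 called (50%, 3 higher and 4 lower). Of PI3K and AKT genes 5 of 17 were called, of TSC and mTOR genes 3 of 16, and of ligands and carriers 1 of 6. Some of these calls were lost in fits without 1 library. The call held in 2 of the 8 fits for GRB2, 5 for PTPN1 and 6 for GAB1, all adaptors and brakes. It held in 4 for PIK3R1 and 0 for TRIB3 (PI3K and AKT), and in 6 for RPS6KB1 (TSC and mTOR). Apart from IDE, given below, the other called genes of these lists held in all 8. The genes with lost calls were named after their values were seen. The FOXO list held 6 called genes of 19 (31.6%), all lower in batch 2, where 12.2% of all tested genes were called lower. MXI1, a MYC antagonist, fell from between 40.0 and 41.5 CPM in batch 1 to between 8.78 and 17.4 CPM in batch 2 (log2 fold change -1.63, edgeR adjusted p 2.97e-06). BCL6, a transcriptional repressor, fell from between 68.0 and 82.8 CPM to between 26.4 and 35.5 CPM (-1.40, edgeR adjusted p 7.25e-07). The other 4 were CCNG2 (-1.14), a cyclin that restrains proliferation, PPARGC1A (-0.85), a coactivator of gluconeogenic genes, CDKN1B (-0.55), a cell cycle inhibitor, and FBXO32 (-1.18), a ubiquitin ligase, with edgeR adjusted p between 1.16e-05 and 0.00673. These 4 were named after their values were seen. Without regard to a test, 12 of the 19 were lower in batch 2 and 7 higher, with a median of -0.18, and no test of the list was run.

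In the other lists SOCS3, a feedback inhibitor of cytokine and insulin signaling, changed most between batches. It stood between 7.19 and 12.6 CPM in batch 1 and between 0.627 and 1.78 CPM in batch 2 (log2 fold change -2.78, edgeR adjusted p 5.17e-06). SH2B2, an adaptor of the insulin receptor, also fell (-1.60, edgeR adjusted p 0.0046), from levels under 2 CPM. PIK3R3, a PI3K regulatory subunit, rose from between 11.4 and 14.7 CPM to between 25.4 and 39.4 CPM (1.22, edgeR adjusted p 2.02e-05), and AKT2, the main AKT isoform of insulin responses in liver, rose by 0.60 (edgeR adjusted p 0.00813). SGK1, a kinase related to AKT, rose by 1.48 (edgeR adjusted p 0.000403) and RICTOR, the defining subunit of mTOR complex 2, fell by 0.53 (edgeR adjusted p 0.0092). IDE, the insulin-degrading protease, was the called gene among the ligands and carriers (-0.44, edgeR adjusted p 0.0236). The IDE call was lost in 4 of the 8 fits without 1 library: without siCtrl replicate 1 (-0.38, 0.0965) or 4 (-0.39, 0.073) and without siNAT10 replicate 2 (-0.34, 0.113) or 3 (-0.40, 0.0753, all edgeR adjusted p). AKT2 passed in siCtrl alone (0.0271) and not in siNAT10 alone (0.137), SH2B2, RICTOR and IDE passed in neither group alone, and CDKN1B and FBXO32 did not pass in siNAT10 alone (0.0764 and 0.277, all edgeR adjusted p).

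The genes most like IGFBP2 and IGFBP1, the members with the lowest p between siRNAs and between batches, were found by Pearson correlation of log2 CPM over the 8 libraries, among 8588 genes with a mean of at least 8 CPM. For IGFBP2 they were F11R (r = 0.97), TMEM183A (r = 0.97) and CPS1 (r = 0.95), the urea cycle enzyme, which was lower in siNAT10 by 0.80 on the log2 scale (edgeR adjusted p 0.0109). F11R and TMEM183A were not called (-0.26 and -0.20, edgeR adjusted p 0.211 and 0.417). For IGFBP1 they were GABARAPL1 (r = 0.98), LARP6 (r = 0.98) and GGA1 (r = 0.97), all lower in batch 2 by 0.37 to 0.45 with edgeR adjusted p from 0.00404 to 0.0311. The points share batch and siRNA, and with 8 libraries and many genes searched these values only describe likeness.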

How the data were processed

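The authors deposited raw read counts for each gene identifier, from alignment to GRCh38 with STAR 2.7.9a and assignment with featureCounts, per the labels, after Trim Galore 0.6.10 and cutadapt 3.5, per the submitters' processing notes. The annotation release, strand setting and handling of ambiguous reads were not given in the sources used here. The kit's orientation was stated as forward in one label and reverse in another. A 3' read stands for a transcript end, so CPM does not scale with length.

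The 8 columns were matched to libraries by the column names in the descriptions. These name a matrix with a prefix that the deposited table's name lacks, and both were taken to be the same matrix. Of the identifiers, 61458 of 86369 matched a symbol. In R 4.3.3, edgeR 4.0.16 kept genes by filterByExpr (minimum count 10), scaled libraries by TMM and fitted batch and siRNA. Adjusted p covers all 13840 genes. CPM uses the scaled totals of the kept genes, and standard errors come from the F statistic. All 10 members were named, with the pathway genes called between siRNAs, the 2 genes of each list with the largest change among those called between batches, and the 3 genes most like IGFBP2 and IGFBP1. IGF2, AKT1, MTOR and PCK1 were named after their values were seen. Members and lists were chosen with earlier results of these data known. Protein sequences were not used here. P-values measure the spread between these libraries, which may be technical, and depth limits cover counting error only.

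Tested on simulated counts for siNAT10 against siCtrl over 13840 genes, the fit recovered 55 of 100 genes changed 1.5-fold and 79 of 100 changed 2-fold, with 8 false calls. Libraries of the same group and batch differed beyond counting noise, with a chi-square per degree of freedom from 16.7 to 27. Same-numbered libraries deviated from their group means together (correlations across genes of 0.39, 0.38, 0.45 and 0.36 for replicates 1 to 4), as did other libraries of the same batch (0.14 to 0.49). The group means were taken over both batches, so these deviations hold the batch difference and cannot show pairing by replicate number. As an alternative, the replicate number was fitted as a block in place of the batch term, since each number belongs to 1 batch. The value with the block is given where it changed a call. Alternatives covered DESeq2 1.42.0, other scalings and filters, thinning to the smallest total, each batch or siRNA group alone, and leaving out each library.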

Additional observations from a re-analysis of the deposited data

Results flagged for a closer look

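Of 18 groups of 4 values (a member in 1 siRNA group), 1 had a library set far apart from the other 3 relative to the spread of all 4. For 4 draws from 1 normal distribution, chance would give about 0.9 (1 in 20). Each group here joins libraries of both batches, so that rate need not hold for them. It was IGF2R in siNAT10 replicate 1, at 344 CPM against 260 to 269 CPM in the other siNAT10 libraries. Without that library the IGF2R log2 fold change between siNAT10 and siCtrl was 0.29 in place of 0.36 (edgeR adjusted p 0.57).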

How the results depend on the processing

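The count of genes called between siNAT10 and siCtrl, 315, was 601 with DESeq2, 595 with no filter on low counts, 15 without the batch term, 173 in batch 1 alone, 0 in batch 2 alone (946 genes at an unadjusted edgeR p under 0.05), and from 75 to 286 without 1 library. With the replicate block it was 454, and 2 members were called, IGFBP2 and IGFBP1; the block ended no call of a named gene. The 1 called member became 2 with DESeq2, 2 with no filter, 0 without the batch term, 0 in batch 2 alone, and 1 to 2 without 1 library. Between batches 3500 genes were called, 1314 in siCtrl alone and 1188 in siNAT10 alone, and from 2531 to 3627 without 1 library. The 2 called members became 1 in siNAT10 alone and 2 to 4 without 1 library. The interaction called 0 genes, 1 with DESeq2, 15 with no filter, and 0 to 2 without 1 library. Signs turned for members near 0. For FOXO3 between siRNAs, 0.013 became -0.035 without the batch term, -0.0020 with the replicate block, -0.26 in batch 1 alone, and -0.18 to 0.13 without 1 library. FOXO1 was at 0.074 in batch 2 alone and IGFBP4 at 0.012 in batch 1 alone. IRS1 was at -0.0104 after thinning and at -0.0089 to 0.056 without 1 library. Between batches, IGFBP2 was at -0.053 in siNAT10 alone, INSR at 0.011 in siCtrl alone and -0.085 to 0.044 without 1 library, and IRS1 at 0.0023 after thinning and -0.052 to 0.014 without 1 library. The cause was not tested. A replicate block could not be fitted for the batch comparison, since each number belongs to 1 batch. Depth limits IRS2 and pathway genes under about 2 CPM.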

Other observations

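The balance of the 2 most abundant binding proteins did not overlap between batches. IGFBP1 had 12.4, 7.71, 11.8 and 9.3 times the CPM of IGFBP2 in siCtrl replicates 1 and 2 and siNAT10 replicates 1 and 2 of batch 1, and 3.16, 4.02, 5.41 and 5.56 times in the corresponding libraries of batch 2. Every batch 2 ratio lay below every batch 1 ratio, and within batch 2 both siNAT10 ratios lay above both siCtrl ratios. The ratio was chosen after its parts were seen and was not tested.

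Of the pathway genes not called between siNAT10 and siCtrl, 5 had a fitted log2 fold change beyond 1 in size, all at levels under 5 CPM. IGFBP3, the main IGF carrier of serum, averaged 1.11 ± 0.508 CPM with siCtrl and 0.405 ± 0.258 CPM with siNAT10 (SD, n = 4 each; log2 fold change -1.55, edgeR adjusted p 0.149). SESN3, a stress-induced regulator of mTOR complex 1, averaged 1.20 ± 0.584 and 0.479 ± 0.319 CPM (-1.29, edgeR adjusted p 0.125), and KLF15, a liver regulator of amino acid metabolism and gluconeogenesis, 1.05 ± 0.408 and 2.39 ± 1.03 CPM (1.18, edgeR adjusted p 0.0615). DEPTOR, an inhibitor of mTOR, averaged 1.73 ± 0.834 and 0.795 ± 0.333 CPM (-1.11, edgeR adjusted p 0.202), and FBXO32 2.76 ± 1.42 and 1.28 ± 0.520 CPM (-1.07, edgeR adjusted p 0.0576). For SESN3 and FBXO32 both siNAT10 libraries lay below both siCtrl libraries in each batch, and for KLF15 above them. Such an order, in 1 direction or the other, was seen in 14.7% of all tested genes. As these genes were picked for the size of their change, the order is no separate evidence. These 5 genes were named after their values were seen.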
